A study of Mus musculus with 4 samples.

Results

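The oligodendrocyte lineage genes are 9 genes, Olig1, Olig2, Sox10, Nkx2-2, Pdgfra, Cspg4, Mbp, Cnp and Mog, that follow a cell from its specification in the ventral forebrain to myelin formation. Their members were all probe sets (groups of short oligonucleotides on an array, read together as 1 signal) whose platform annotation gave exactly 1 gene symbol equal to a member. This gave 23 of the 45265 probe sets in the data, 22 on the MOE430A array and 1 on the MOE430B array. The samples were neurospheres, floating cultures of neural stem and progenitor cells, started from the ventral telencephalon of mouse forebrain at E12.5, in mid-gestation. There was 1 RNA sample from E2F4 knockout neurospheres and 1 from E2F4 wild type neurospheres, and each was hybridised to 1 MOE430A and 1 MOE430B array, which makes 4 arrays. The sources used here do not give the strain, the design of the E2f4 deletion, the number of embryos behind each culture or the passage. With 1 sample per genotype there is no test and no error across samples, and differences between these samples need not be differences between genotypes.

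E2F4 is a transcription factor that, bound to pocket proteins, keeps cell cycle genes repressed. Oligodendrocytes are the myelin-forming cells of the central nervous system. In the embryonic forebrain their earliest precursors arise in the ventral telencephalon under Sonic hedgehog, which induces Olig1 and Olig2, and the committed precursors then carry Sox10, the growth factor receptor PDGFRα and the proteoglycan NG2. Myelin proteins such as MBP, CNPase and MOG are made in quantity only as these precursors mature, mostly after birth in the mouse. The labels state the purpose of the series as finding the signalling affected by E2f4 deletion.

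The 1 E2f4 probe set had a signal of 1535 in the sample labelled knockout and 1812 in wild type, a log2 ratio of -0.25. No source used here says whether this probe set lies inside the deletion, so it does not check the label, and the sample is called knockout-labelled below. Median signals were 736 in the knockout-labelled sample and 735 in wild type on MOE430A, and on MOE430B they were 942 in the knockout-labelled sample and 941 in wild type. Within each design, knockout-labelled and wild-type arrays shared a hybridisation day. The neural progenitor genes Nes, Sox2, Vim, Fabp7, Pax6 and Msi1 and the ventral genes Nkx2-1, Dlx1, Dlx2 and Gsx2, named with their values known, each had at least 1 probe set at or above the median signal of its design in both samples. Xist, the RNA that silences an X chromosome in female cells, had a signal of 1178 in the knockout-labelled sample and 8980 in wild type on its measured probe set. Any effect of embryo sex therefore cannot be told apart from one of genotype.

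Most of the oligodendrocyte lineage signal was low. A probe set is called measured if both samples reached the floor, the median signal of the array design, 736 on MOE430A and 942 on MOE430B. Of the 23 member probe sets, 3 were measured, against 46.8% of all probe sets with 1 symbol. These were 1 each of Sox10, Cnp and Mbp. A further 2 reached the floor in the knockout-labelled sample alone, where the background was 5.47%, and 2 in wild type alone, where it was 5.35%. The remaining 16 lay below it in both samples. Olig1, Nkx2-2, Cspg4 and Mog had no probe set at the floor in either sample. As a yardstick for what the floor means, of 51 probe sets for genes of other organs, such as albumin, prolactin and protamine genes, 5 were measured, or 9.80%. The lineage genes' share, 13.0%, is set beside it as a description only, since a MAS5 signal at this height does not by itself show that a transcript is present. These shares count probe sets, and 8 of the 23 member probe sets are of Mbp. Counted by gene, 3 of 9 lineage genes were measured, beside 4 of 37 of other organs and 10171 of all 18193.

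**Figure D1:**
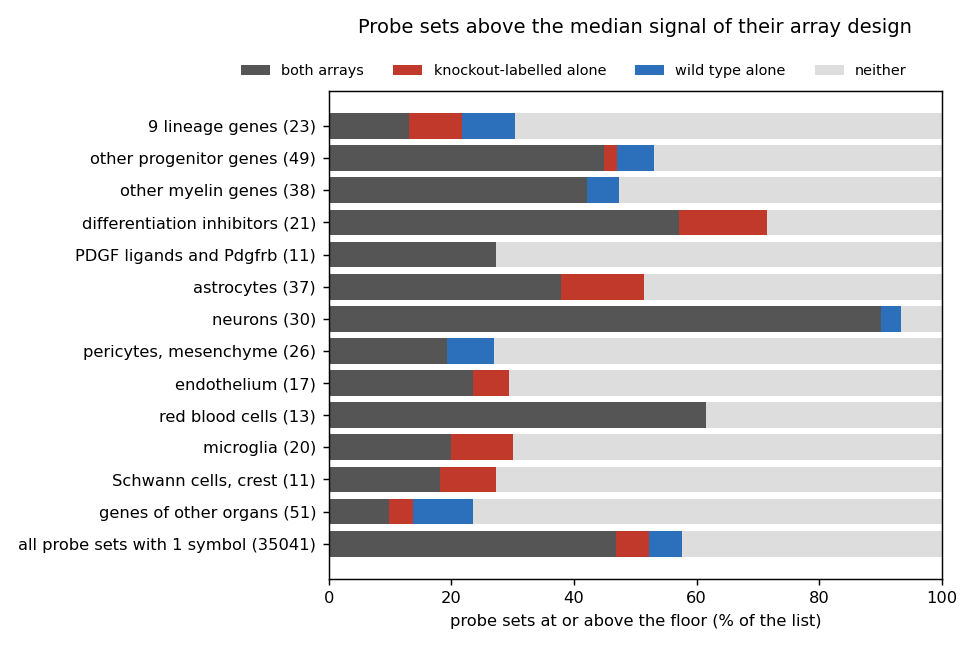
Bars give, for each gene list, the percent of its probe sets at or above the median signal of their array design in both arrays (dark grey), in the knockout-labelled sample alone (red), in wild type alone (blue) or in neither (light grey). The number of probe sets stands in brackets. Of the 23 probe sets of the 9 lineage genes, 3 were at or above it in both, beside 9.80% for genes of other organs and 46.8% for all probe sets with 1 symbol.

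Over all 23 member probe sets, the signal was lower in the knockout-labelled sample on 12 and higher on 11. Of all probe sets with 1 symbol, 49.6% were lower, so the members were split as the array was. Every one of the 23 lay inside the central 95% of log2 ratios of probe sets of like signal on its own design (mean log2 signal within 0.25). No measured member differed by 2-fold, where 0.482% of measured genes were at least 2-fold lower and 0.531% at least 2-fold higher. The 3 measured members were all lower, where 51.4% of the 10171 measured genes were lower. Their median log2 ratio was -0.45, beside -0.0085 over all measured genes, and 6 of the 9 members are not in it. With 1 ratio between 2 samples there was no pattern over samples by which other genes could be ranked for likeness to these.

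**Figure D2:**
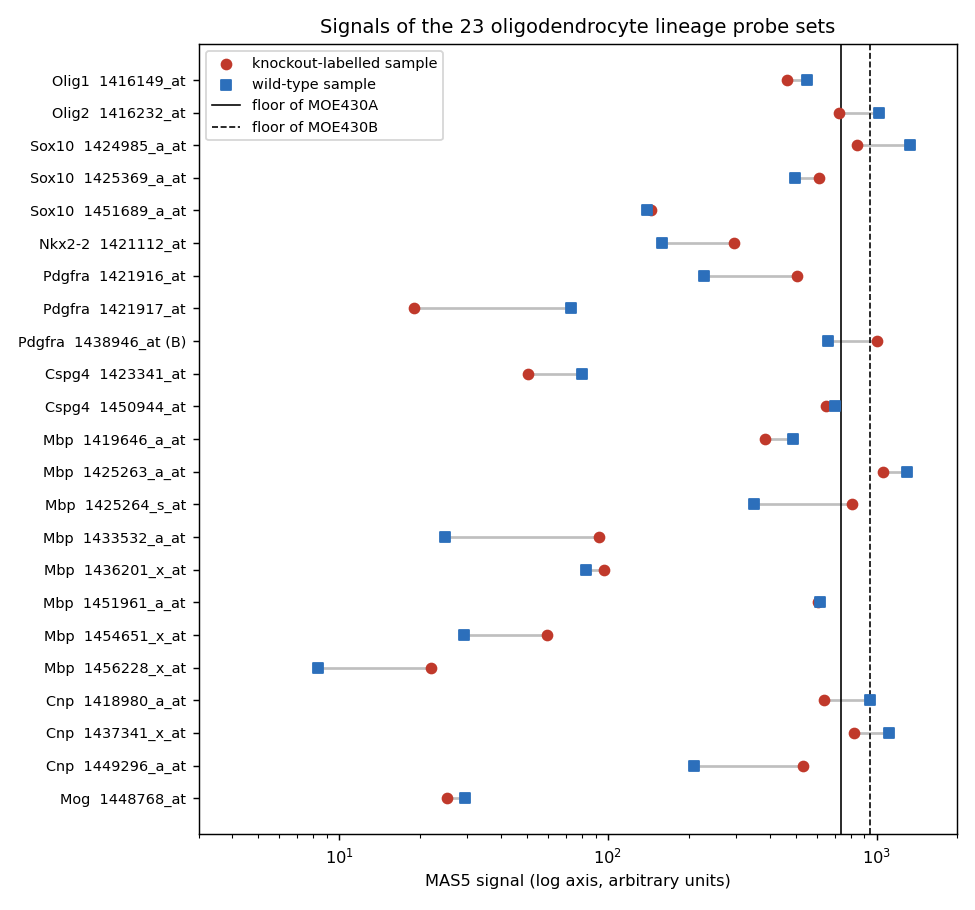
Each row is 1 probe set of a lineage gene, with its MAS5 signal on a log axis in the knockout-labelled sample (red circle) and in wild type (blue square); (B) marks the probe set on MOE430B. Vertical lines are the floors, 736 for MOE430A (solid) and 942 for MOE430B (dashed). The knockout-labelled sample is lower on 12 rows and higher on 11, and probe sets of the same gene point both ways for Sox10, Pdgfra, Mbp and Cnp.

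Among the transcription factors, Olig2, the basic helix-loop-helix factor that specifies both motor neuron and oligodendrocyte progenitors and also marks ventral forebrain progenitors at large, had a signal of 725 in the knockout-labelled sample and 1022 in wild type. Only wild type was at the floor, which puts Olig2 in the knockout-labelled sample lower by 1.39-fold or more. The knockout-labelled signal missed the floor narrowly. Its partner Olig1, which lies beside it on chromosome 16 and acts in maturation of the lineage, read 464 in the knockout-labelled sample and 550 in wild type. Both of these signals were below the floor, so no fold is given at this floor; with the floor at the 30th percentile the Olig1 log2 ratio was -0.26. Both genes had only 1 probe set. The 4 ventral genes above, named with their values known, were lower too, where 51.4% of all measured genes were. Dlx2 read 3140 in the knockout-labelled sample and 4528 in wild type, and Nkx2-1 read 796 in the knockout-labelled sample and 1026 in wild type. The log2 ratios of Dlx1 and Gsx2 were -0.28 and -0.15. Their part in the Olig2 value was not tested, and in a bulk culture fewer cells of a type and less RNA per cell cannot be told apart.

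Because the deleted gene encodes a promoter-binding factor, the promoters of the members that reached the floor in a sample are shown where RefSeq's table for GRCm38.p6 gave one. These were Olig2 (chr16:91225300-91225599, plus strand), Cnp (chr11:100574689-100574988, plus strand) and Pdgfra (chr5:75152001-75152300, plus strand), each running from 250 bases before the gene's start to 50 after it. Capitals mark matches on either strand to the E2F motif, searched as TTCCCGC or TTCGCGC or TTGCCGC or TTGGCGC, or to the CHR element of cell cycle genes, searched as TTTGAA or TTCGAA. No match of one motif overlapped the other.
Olig2 promoter: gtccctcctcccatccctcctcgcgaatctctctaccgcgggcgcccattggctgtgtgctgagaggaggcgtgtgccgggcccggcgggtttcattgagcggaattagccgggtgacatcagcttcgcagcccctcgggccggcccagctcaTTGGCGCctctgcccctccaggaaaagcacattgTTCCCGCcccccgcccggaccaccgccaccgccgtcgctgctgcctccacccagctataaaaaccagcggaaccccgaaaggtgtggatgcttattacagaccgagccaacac
Cnp promoter: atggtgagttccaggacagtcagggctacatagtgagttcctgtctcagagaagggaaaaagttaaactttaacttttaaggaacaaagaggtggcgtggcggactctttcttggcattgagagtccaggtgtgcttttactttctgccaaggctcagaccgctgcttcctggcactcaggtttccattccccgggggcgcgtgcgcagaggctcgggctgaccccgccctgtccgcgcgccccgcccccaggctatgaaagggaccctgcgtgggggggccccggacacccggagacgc
Pdgfra promoter: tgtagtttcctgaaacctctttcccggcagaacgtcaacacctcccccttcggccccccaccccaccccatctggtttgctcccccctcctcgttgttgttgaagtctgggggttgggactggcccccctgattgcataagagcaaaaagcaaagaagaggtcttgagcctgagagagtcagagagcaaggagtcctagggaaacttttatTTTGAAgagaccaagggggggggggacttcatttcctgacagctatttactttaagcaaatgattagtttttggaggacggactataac

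The Olig2 promoter held 2 E2F matches, TTGGCGC beginning 97 bases before the start and TTCCCGC beginning 63 bases before it. Of all 32851 promoters in the table, 9.57% held at least 1 such match and 1.18% held more than 1. The Olig2 window is 65.0% G and C, and among the 6703 promoters with 60 to 70% the shares were 18.8% and 2.70%. The Pdgfra promoter held 1 CHR match, which 19.2% of all promoters did, and the Cnp promoter held neither motif. Promoters of 6 members were in the table, and those of Nkx2-2, Cspg4 and Mog held neither motif. A match is a run of letters in the window and does not show that E2F4 binds there.

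Sox10, the HMG-box factor that switches on myelin genes in oligodendrocytes and in Schwann cells, had the farthest measured ratio of the members. Its probe set 1424985_a_at read 842 in the knockout-labelled sample and 1332 in wild type, a log2 ratio of -0.67 or 1.59-fold lower. This is larger than the pooled SD of 0.33 between probe sets of 1 gene, taken over 3956 genes. That SD covers measured probe sets of all signals and is not an error between samples. Among MOE430A probe sets of like signal, the SD of log2 ratios was 0.42. The Sox10 ratio is inside the range of -0.84 to 0.83 that held the central 95% of these 2155 probe sets. The other Sox10 probe sets were below the floor in both samples and pointed the other way. One read 611 in the knockout-labelled sample and 498 in wild type, and the other 144 in the knockout-labelled sample and 140 in wild type. A lower floor, at the 30th percentile, admits 1 of them, and the Sox10 log2 ratio was then -0.19.

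Nkx2-2, a homeodomain factor that in the spinal cord marks ventral progenitors and later the onset of oligodendrocyte differentiation, read 296 in the knockout-labelled sample and 159 in wild type. Both values are below the floor. At that signal 46.8% of probe sets on the array differed by 2-fold or more between the samples.

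The receptor and surface proteins of the precursors gave no measured value. Pdgfra, which encodes the receptor through which PDGF-A drives precursor division, had 3 probe sets. On MOE430B it read 1002 in the knockout-labelled sample and 658 in wild type, so that only the knockout-labelled signal was at the floor, and the difference was at least 1.06-fold upward. On MOE430A a probe set read 507 in the knockout-labelled sample and 228 in wild type, and the other read 19.0 in the knockout-labelled sample and 72.7 in wild type, all below the floor. So 2 probe sets were higher and 1 lower. Cspg4, which encodes the NG2 proteoglycan of precursors and of pericytes, read 649 in the knockout-labelled sample and 698 in wild type on 1 probe set. On the other it read 50.4 in the knockout-labelled sample and 80.5 in wild type. All of these signals were below the floor, and on both probe sets the knockout-labelled sample had the lower one. PDGFRα is also made by mesenchymal cells, so markers of pericytes and mesenchyme were read beside it. Of 12 such genes, 4 were measured and all 4 were higher, where 48.6% of all measured genes were, and the median log2 ratio was 0.26. Rgs5 stood at 0.28, Acta2 at 0.27, Abcc9 at 0.25 and Col1a2 at 0.09. The rest of the list, Pdgfrb, Kcnj8, Anpep, Col1a1, Col3a1, Dcn, Lum and Foxc1, had no measured probe set. Another Rgs5 probe set pointed the other way, with 713 in the knockout-labelled sample and 952 in wild type and only wild type at the floor. In signal, 12 of the list's 26 probe sets were lower in the knockout-labelled sample. Over all 26 probe sets of that list the summed signal was 15916 in the knockout-labelled sample and 14671 in wild type, and their part in the Pdgfra values was not tested.

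Of the PDGF ligands, Pdgfa, the main growth factor of the precursors, was measured on 1 of 2 probe sets with 849 in the knockout-labelled sample and 752 in wild type, a log2 ratio of 0.17. Pdgfb stood at -0.48 and Pdgfc at -0.07, each on 1 of 2 probe sets. The other Pdgfb probe set pointed the other way below the floor, with 511 in the knockout-labelled sample and 224 in wild type. So did that of Pdgfc, with 513 in the knockout-labelled sample and 199 in wild type. Pdgfd and the receptor gene Pdgfrb had no measured probe set. The median of the 3 measured genes was -0.07.

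Among the myelin genes, Cnp, which encodes the myelin enzyme CNPase and is switched on early in the lineage, had 3 probe sets. The measured one, 1437341_x_at, read 825 in the knockout-labelled sample and 1117 in wild type, a log2 ratio of -0.45 or 1.36-fold lower. A second, 1418980_a_at, read 639 in the knockout-labelled sample and 944 in wild type, so that only wild type was at the floor, and the difference was at least 1.28-fold downward. The last, 1449296_a_at, was below the floor in both samples at 534 in the knockout-labelled sample and 209 in wild type, the other way round. The central 95% of ratios at the signal of the measured probe set ran from -0.91 to 0.84.

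Mbp encodes myelin basic protein, and its gene also gives the golli transcripts, which are made outside oligodendrocytes as well, so its probe sets need not report 1 product. There were 8, of which 1 was measured. That one, 1425263_a_at, read 1053 in the knockout-labelled sample and 1302 in wild type, a log2 ratio of -0.31, within the pooled SD of 0.33 between probe sets. The probe set 1425264_s_at read 813 in the knockout-labelled sample and 350 in wild type, and was at least 1.11-fold higher. The other 6 were below the floor in both samples, with signals from 22.1 to 604 in the knockout-labelled sample and from 8.38 to 618 in wild type. In all, 5 Mbp probe sets were higher in signal and 3 lower, and the direction of the gene turned to 0.13 with that lower floor. Mog, a surface glycoprotein found on mature oligodendrocytes, read 25.2 in the knockout-labelled sample and 29.4 in wild type on its 1 probe set, below the floor.

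**Figure D3:**
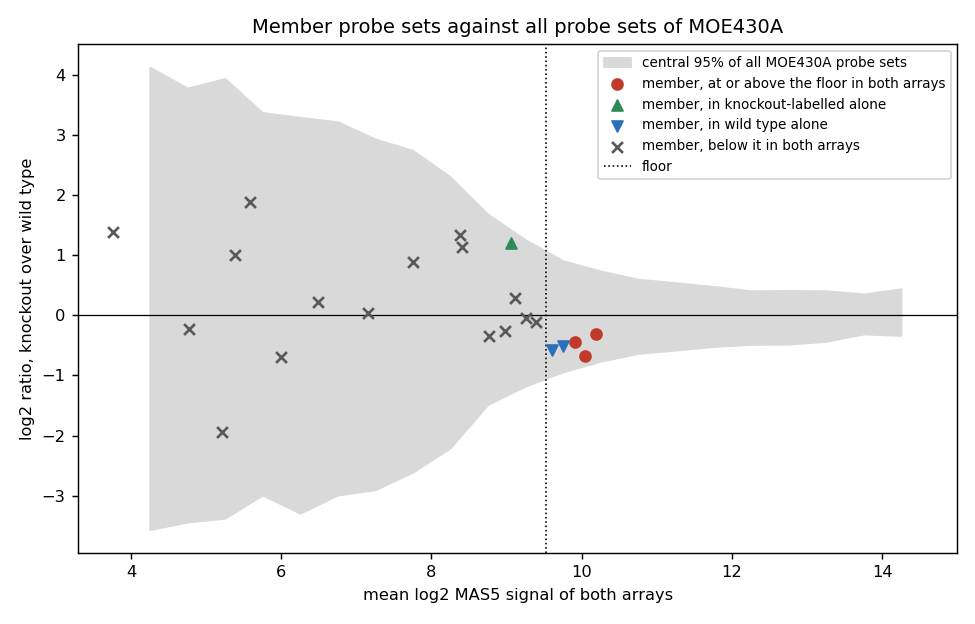
Log2 ratio of knockout over wild type against the mean log2 signal for the 22 member probe sets on MOE430A, drawn over the central 95% of all probe sets of that design (grey). Red circles are members at or above the floor (dotted line) in both arrays, green and blue triangles those at or above it in the knockout-labelled sample or in wild type alone, and crosses those below it in both. The band is drawn where a bin of signal held at least 100 probe sets, so it does not reach the dimmest member, an Mbp probe set. The other 21 members lie inside it, and it is wider at low signal than at high signal.

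Other genes of the lineage were taken from lists chosen with earlier results of these data known. Of 22 further progenitor genes, 20 were on the arrays and 10 were measured, with 6 higher, 4 lower and a median log2 ratio of 0.14, where 48.6% of all measured genes were higher. Bcas1, a marker of newly forming oligodendrocytes, stood farthest from 0 at 0.42, with 2616 in the knockout-labelled sample and 1962 in wild type on its measured probe set. Another Bcas1 probe set pointed the other way, with 653 in the knockout-labelled sample and 980 in wild type and only wild type at the floor. The last Bcas1 probe set was higher, with 1032 in the knockout-labelled sample and 647 in wild type and only the knockout-labelled signal at the floor. Chd7, a chromatin remodeller that works with Sox10 in this lineage, stood at 0.36 and had both of its probe sets higher. C1ql1, a secreted protein of precursors, stood at 0.32. The median was -0.047 with no floor and -0.0074 with the brightest probe set of each gene, so its sign rests on these choices.

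Of 24 further myelin genes, 21 were on the arrays and 10 were measured, with 4 higher and 6 lower and a median of -0.02. The 3 farthest from 0 were Fa2h and Cntn2, which were higher, and Car2, which was lower. Fa2h, which makes the hydroxylated lipids of myelin, had 1645 in the knockout-labelled sample and 976 in wild type, a log2 ratio of 0.74. Car2, a carbonic anhydrase, had 1265 in the knockout-labelled sample and 2038 in wild type, a log2 ratio of -0.70. Cntn2 stood at 0.70 as the mean of 4 measured probe sets, all higher, from 0.13 to 0.97. On the probe set with the largest difference it read 6314 in the knockout-labelled sample and 3237 in wild type. Cntn2 encodes a contactin that is found on axons of developing projection neurons as well as in myelinated fibres.

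Of 9 genes that hold back differentiation or act on it through Notch, BMP or Wnt, 8 were measured, with 5 higher, 3 lower and a median of 0.04. Hes5, a Notch target, had the farthest ratio at -0.87, but its 2 probe sets disagreed at -1.50 and -0.25. Tcf7l2, a Wnt effector expressed in maturing oligodendrocytes, stood at 0.58 on 1 measured probe set with 1198 in the knockout-labelled sample and 797 in wild type. Jag1, a Notch ligand, stood at -0.50 on 1 of 3 probe sets, and its other probe sets were higher in signal, with 872 and 242 in the knockout-labelled sample and 726 and 112 in wild type. No measured gene of these lists differed by 2-fold in its mean over probe sets.

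**Figure D4:**
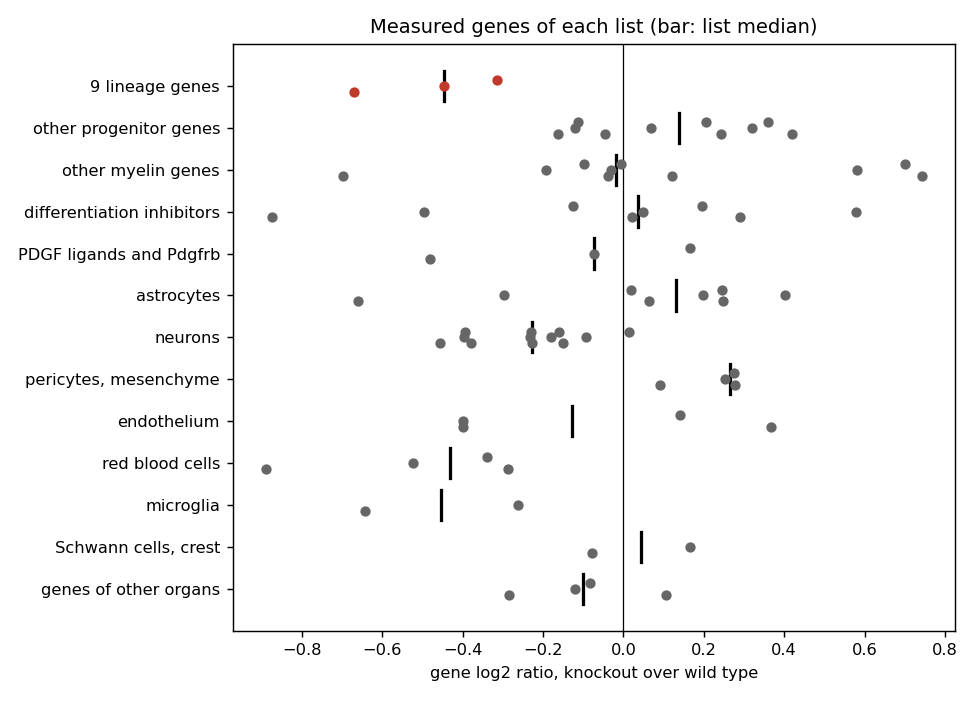
Each point is the log2 ratio, knockout over wild type, of 1 measured gene, and the vertical bar is the list median; points are spread vertically only to separate them. The 3 measured lineage genes (red) lie between -0.67 and -0.31, with a median of -0.45. The other progenitor, myelin and inhibitor lists have medians of 0.14, -0.02 and 0.04. Their genes run from -0.16 to 0.42, from -0.70 to 0.74 and from -0.87 to 0.58. List medians in the figure run from -0.45 for microglia to 0.26 for pericytes and mesenchyme, with red blood cells at -0.43.

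Markers of other cell types were read beside these, and their counts stand against the 51.4% of all measured genes that were lower and the 48.6% that were higher. No measured gene of these lists differed by 2-fold in its mean over probe sets. Of 12 neuronal genes, all 12 were measured and 11 were lower, with a median of -0.23 and Nefl, Elavl3 and Map2 at -0.46, -0.40 and -0.39. Over all 30 neuronal probe sets the summed signal was 187273 in the knockout-labelled sample and 217942 in wild type. The 4 measured red blood cell genes of 8 were all lower, with a median of -0.43, led by the embryonic globin Hbb-bh1 at -0.89. Over all 13 probe sets of that list the summed signal was 216851 in the knockout-labelled sample and 282247 in wild type. The embryonic globin Hbb-y read 69939 in the knockout-labelled sample and 89828 in wild type on its brightest probe set. That is above the brightest probe set of the progenitor gene Vim, at 49859 in the knockout-labelled sample and 48180 in wild type. Which cells gave the globin signal was not tested. Of 10 microglial genes 2 were measured, Laptm5 at -0.64 and Csf1r at -0.26. Another Laptm5 probe set pointed the other way, with 1178 in the knockout-labelled sample and 883 in wild type and only the knockout-labelled signal at the floor. The 3 Csf1r probe sets stood at -0.05, -0.08 and -0.66. Of the microglial probe sets, 10 of 20 were lower in signal. Over all 20 microglial probe sets the summed signal was 10745 in the knockout-labelled sample and 11307 in wild type. Of 12 astrocyte genes, 8 were measured, with 6 higher and a median of 0.13, and Id3 at -0.66 and Clu at 0.40 lay farthest from 0. Clu was measured on 1 of 4 probe sets, and its others were below the floor in both samples. Of these, 1 pointed the other way, with 149 in the knockout-labelled sample and 517 in wild type, and the rest were higher. Of 9 endothelial genes, 4 were measured, 2 each way, with a median of -0.13. None of the 4 Flt1 probe sets was measured. On 1 of them Flt1 reached the floor in the knockout-labelled sample only, at least 2.36-fold above wild type. The other Flt1 probe sets were below the floor in both samples. Schwann cells and neural crest share Sox10 and Mbp with the lineage. Of 9 of their markers 2 were measured, Tfap2a at 0.17 and Gfra3 at -0.08. The 4 measured genes of other organs had a median of -0.10. The part of these differences in the lineage values was not tested.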

How the data were processed

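Total RNA was prepared with RNeasy columns and labelled with biotin without extra amplification, per the labels' protocols. The deposited values are linear MAS5 signals, an intensity per probe set; the submitters' processing notes name MAS5, with the version not given in the sources used here. Their distribution shows that the authors scaled each array to a mean near 1500 after trimming 2% at each end. No detection calls were used here. The instrument records hold no expression value and gave the hybridisation day.

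Log2 ratios of knockout over wild type were taken within each design and centred on their median, which was 0.0093 for MOE430A and -0.0039 for MOE430B, after removing 64 control probe sets per design. A probe set was measured where both arrays reached the design's median signal. Where 1 array did, its signal over that floor gave a bound, and below it in both no fold was given. Measured probe sets of a gene were averaged. Those without exactly 1 symbol were assigned to no gene: several symbols or none were given for 691 and 1555 on MOE430A and for 245 and 7605 on MOE430B. All 9 member symbols matched the RefSeq table of GRCm38.p6 by gene identifier. The number of arrays limits the precision.

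The 13 lists, that of the members among them, were chosen with earlier results of these data known. All members are named with all probe sets. Of the other lists, up to 3 measured genes farthest from 0 and up to 2 bounds of at least 2-fold are named. The 11 alternatives were 2 other floors (the 30th and 70th percentile), a pseudocount equal to the median signal in place of any floor, no floor at all, no centring, quantile normalization, the brightest probe set, lowess (span 0.3), no _x_at, _s_at or _a_at probe sets, and each design alone. The procedure was tested on simulated data with planted changes of at least 2-fold. The noise of that simulation was set by a formula and not taken from these arrays. It does not show how well smaller ratios, such as those of the measured members, are recovered. Calculations ran in Python 3.11.15 with pandas 2.3.3 and numpy 2.4.6; lowess came from statsmodels 0.14.6, trimmed means from scipy 1.17.1 and plots from matplotlib 3.10.9.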

Additional observations from a re-analysis of the deposited data

How the results depend on the processing

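No paired analysis was possible because each genotype had 1 sample and the labels give no replicate numbers. Of the values without centring, with quantile normalization, with lowess and with the brightest probe set, none of the 5 lineage genes with a ratio or a bound changed direction. These settings could hardly change one. The bounds of Olig2 and Pdgfra take their sign from the sample that reached the floor, with no centring or lowess correction. Sox10, Mbp and Cnp had 1 measured probe set each, which was also their brightest. The centring shift on MOE430A was only 0.0093. The floor mattered more. The median of the measured lineage genes was -0.45 over 3 genes, -0.19 over 7 with the floor at the 30th percentile, -0.12 over 9 with no floor and -0.040 over 9 with a pseudocount, and the number lower was 5 of 7, 6 of 9 and 6 of 9 in the same order. Mbp turned to 0.13, 0.63 and 0.048 under these, Cnp to 0.11 and Pdgfra to -0.062 with no floor, where further probe sets of the gene enter the mean, some in each direction. No lineage gene was measured with the floor at the 70th percentile, without _x_at, _s_at and _a_at probe sets, or on MOE430B alone, so these gave no median.

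The median of the other progenitor genes turned to -0.047 with no floor, -0.015 with a pseudocount and -0.0074 with the brightest probe set. That of the other myelin genes turned to 0.0097 with the brightest probe set and 0.058 on MOE430A alone. That of the differentiation inhibitors turned to -0.052 with the floor at the 70th percentile and also when _x_at, _s_at and _a_at probe sets were left out, and to -0.24 on MOE430B alone over 2 genes, and was 0.19 with no floor. Signal over background limits all lineage values: at the signal of Nkx2-2, the central 95% of log2 ratios ran from -2.60 to 2.75.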
